A study of Mus musculus with 6 samples.

Results

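The genes described here are 10 immune-recognition genes of the mouse: the receptors Cd226, Tigit and Cd96, their ligands Pvr and Nectin2, and the ligands and adhesion molecules Cd274, Cd47, Cd84, Cd40lg and Tnfsf14. They were chosen by gene symbol, as the probes whose annotation names 1 of them, and make up 10 of the 30142 genes with a probe of their own. Each had exactly 1 such probe. Levels were measured on 6 Clariom D Mouse microarrays, which hybridise biotin-labelled cDNA to probes across the transcriptome, and are given as log2 signal. Platelets from blood and megakaryocyte progenitors from bone marrow were each profiled from mice given PBS, mice given extracellular vesicles labelled CTC41-EVs and mice given extracellular vesicles labelled CTC41.5G-EVs. Every group is 1 array of RNA pooled over mice. No source used here gives the strain, age or number of the mice, the dose or timing of the vesicles, or what CTC41 and CTC41.5G stand for.

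The protocols in the labels state that leukocytes in the platelet preparations were looked for under the microscope, and that pools were either used directly or first cleared of leukocytes and erythrocytes with magnetic beads, but not which pools were. The platelet arrays carried platelet RNA: all 13 platelet and megakaryocyte genes measured were higher there, with a mean for Pf4 (platelet factor 4) of 12.72 against 6.44 in progenitors and for Itga2b (integrin alpha-IIb) of 9.54 against 6.51. The progenitor arrays were higher for Kit, the stem cell factor receptor, at 6.03 against 4.64. However, of 10 progenitor and stem cell genes 3 were called higher in platelets (Slamf1, Itga2b and Cd9) and 2 lower (Kit and Myb). Itga2b stands in the list of platelet and megakaryocyte genes as well. The progenitor list as a whole thus did not set the progenitor arrays above the platelets. Over all genes tested, as described below, 16.2% were called higher in platelets and 25.7% lower. Genes of neutrophils and their precursors were called higher in progenitors for 10 of 13, with a summed log2 signal of 10.83 to 11.02 against 8.89 to 9.15 in platelets. The sign held for 9 of the 10 with centring on olfactory receptor genes. Erythroid genes had summed signals of 10.81 to 10.93 in platelets against 7.95 to 8.01 in progenitors. Of the 6 tested, however, 3 were called higher in platelets and 3 were not called. In such bulk samples, fewer cells of a type and less RNA per cell cannot be told apart.

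CD226, also called DNAM-1, is an activating receptor of NK cells, T cells and platelets that pairs with the integrin LFA-1. TIGIT and CD96 bind the same ligands, PVR and, for TIGIT, nectin-2, and TIGIT opposes CD226 in lymphocytes. CD47 binds SIRPα on phagocytes and holds back engulfment, PD-L1 (Cd274) binds PD-1 on T cells, and CD84 is a self-binding receptor of the SLAM family found on platelets and leukocytes. CD40 ligand (Cd40lg) and LIGHT (Tnfsf14) belong to the TNF family and act on CD40 and on HVEM and the lymphotoxin beta receptor.

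In platelets, 3 of the 10 genes were far higher than in megakaryocyte progenitors: Cd226, Cd84 and Cd47. Pvr was the single member called lower in platelets, a call that did not hold when counted from the floor or after rescaling. Tigit, Nectin2, Cd274 and Tnfsf14 did not pass, and Cd96 and Cd40lg lay below the floor, under which no gene was tested (mean over the 6 arrays of 4.23, the median of all probes). The 3 arrays of each cell type were compared with limma across all 18875 genes above the floor, with the treatment as a covariate and 2 residual degrees of freedom, and calls needed both a difference of 1.5-fold and a p of 0.05 or less after Benjamini-Hochberg adjustment. By that rule 16.2% of all tested genes were called higher in platelets and 25.7% lower, against 3 and 1 of the 8 members tested. The median difference was 0.28 for the 8 members and -0.26 for all tested genes.

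That split between directions depended on how the arrays were scaled. Of all called genes 61.3% were lower in platelets as deposited, 35.5% after quantile normalization, 29.0% with the arrays set to the same median, and 11.9% with the arrays centred on 1069 olfactory receptor genes. These scalings moved the median of all genes from -0.26 to 0.05, 0.11 and 0.46. Differences are therefore given below relative to the median of all genes as well.

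Among the receptors, Cd226 stood at 9.42 in platelets with PBS, 9.10 with CTC41-EVs and 9.59 with CTC41.5G-EVs. In progenitors it stood at 2.96, 2.90 and 3.26 in the same order, below the floor on every array. All platelet arrays were thus far above all progenitor arrays, with no overlap. The mean was 9.37 ± 0.25 (SD, n = 3) in platelets and 3.04 ± 0.19 (SD, n = 3) in progenitors, and limma gave a fitted log2 difference of 6.33 (SE 0.11, 95% interval 6.06 to 6.60) with an adjusted p of 1.69e-06. Since the progenitor values lay below the floor, the size of that difference is not measured, and a log2 difference of at least 5.14, counted from the floor, is its lower bound. The fitted difference was 6.59 relative to the median of all genes, and Cd226 was called higher under all 16 alternative settings. However, Cd226 passed the floor only through the platelet arrays. Median and olfactory receptor scaling raised the difference of every gene by a fixed amount, so those settings could not lower it. The floors, the changes to trend, moderation and treatment term, and the mean over its 1 probe left the difference at 6.33.

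Tigit, the inhibitory receptor, lay at 4.59, 4.51 and 4.58 in platelets and at 4.98, 4.96 and 4.99 in progenitors. Platelets were lower on every array by a small step, a log2 difference of -0.41 (SE 0.08, 95% interval -0.60 to -0.23) with a limma adjusted p of 0.00245 but under 1.5-fold, so it was not called. Relative to all genes the difference was -0.15, and it turned to 0.30 with centring on olfactory receptor genes. Cd96, the third receptor of the set, lay between 3.49 and 3.76 in platelets and between 3.68 and 3.70 in progenitors, with overlapping arrays and all of them below the floor. Fitted without the floor, its log2 difference was -0.03 (95% interval -0.27 to 0.22).

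Of the shared ligands, Pvr stood at 3.89, 3.88 and 4.07 in platelets and at 4.46, 4.72 and 4.78 in progenitors. The platelet arrays were all below the floor and the progenitor arrays all above it. The fitted log2 difference was -0.71 (SE 0.10, 95% interval -0.95 to -0.47, adjusted p 0.000702 by limma), or -0.45 relative to all genes. Pvr passed the floor only through the progenitor arrays, and with the platelet level set to the floor the difference was -0.43, under 1.5-fold. The call did not hold either when the arrays were rescaled: the difference was -0.33 after quantile normalization (adjusted p 0.0264, under 1.5-fold) and 0.01 with centring on olfactory receptor genes (limma adjusted p 0.937).

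Nectin2, the other ligand, lay at 4.77, 4.80 and 4.86 in platelets and at 5.05, 4.96 and 5.06 in progenitors. The groups did not overlap, yet the log2 difference was only -0.21 (SE 0.08, 95% interval -0.40 to -0.03, limma adjusted p 0.0429), was not called, and turned to 0.14, 0.16 and 0.50 under quantile, median and olfactory receptor scaling. Relative to all genes it was 0.05. Arrays of the cell types failed to overlap for 7 of the 8 tested members, but also for 78.4% of all tested genes, so a lack of overlap alone is common on these arrays.

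**Figure D1:**
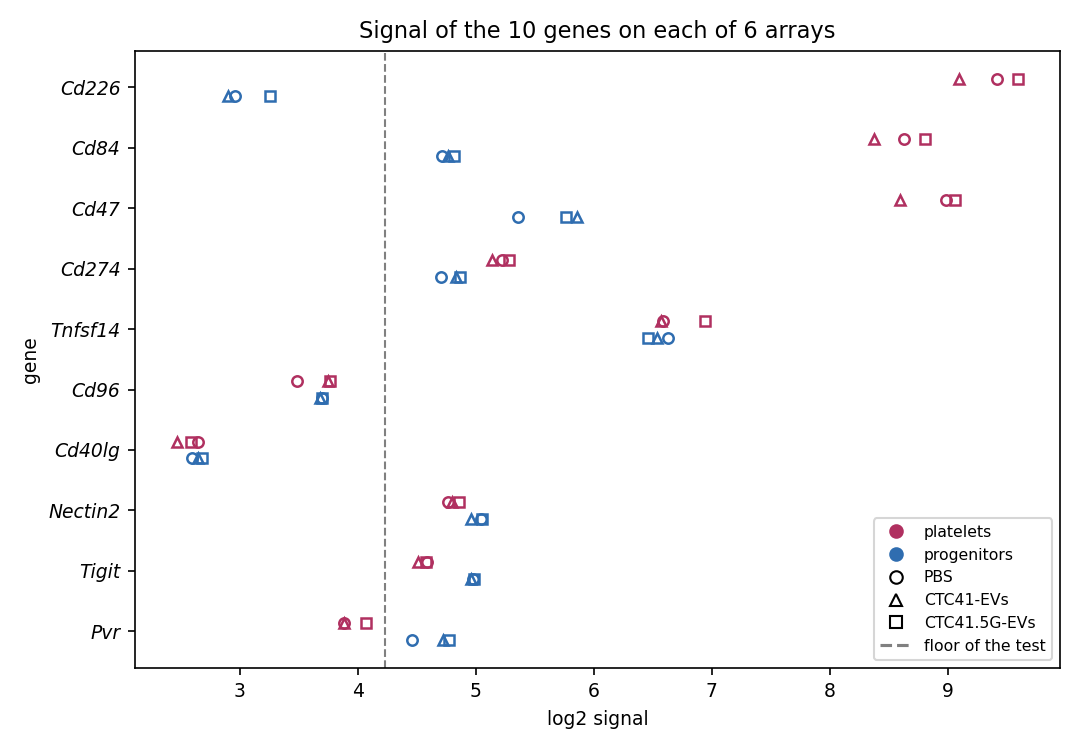
Log2 signal of each of the 10 genes on each of the 6 arrays, with cell types in colour and treatments by marker shape; the dashed line marks the floor of 4.23. Cd226, Cd84 and Cd47 lie above 8 in platelets and below 6 in progenitors, whereas Cd40lg and Cd96 lie below the floor in both.

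Cd84, which also occurs on leukocytes, stood at 8.63, 8.37 and 8.81 in platelets and at 4.72, 4.76 and 4.81 in progenitors. The platelet arrays were all higher, with means of 8.60 ± 0.22 and 4.76 ± 0.05 (SD, n = 3 each) and a log2 difference of 3.84 (SE 0.13, 95% interval 3.52 to 4.16, adjusted p 2.13e-06 by limma), or 14.3-fold. Cd47, the ligand of SIRPα, stood at 8.98, 8.59 and 9.06 in platelets and at 5.36, 5.86 and 5.77 in progenitors. Again no arrays overlapped, and the means were 8.88 ± 0.25 and 5.66 ± 0.26 (SD, n = 3 each), a log2 difference of 3.22 (SE 0.19, 95% interval 2.76 to 3.67, adjusted p 1.24e-05 by limma) or 9.3-fold. Relative to all genes these differences were 4.10 for Cd84 and 3.48 for Cd47.

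Cd274, which encodes PD-L1, lay at 5.22, 5.14 and 5.28 in platelets and at 4.70, 4.83 and 4.87 in progenitors. Platelets were higher on every array by a log2 difference of 0.41 (SE 0.08, 95% interval 0.21 to 0.61, limma adjusted p 0.00351), under 1.5-fold and so not called. It was called higher under quantile, median and olfactory receptor scaling, at 0.74, 0.79 and 1.13, and was 0.67 relative to all genes.

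The TNF family ligands showed no called difference. Tnfsf14 stood at 6.59, 6.57 and 6.94 in platelets and at 6.63, 6.53 and 6.46 in progenitors, with overlapping arrays and a log2 difference of 0.16 (SE 0.15, 95% interval -0.19 to 0.51, limma adjusted p 0.351). It was 0.42 relative to all genes and was called higher, at 0.88, with centring on olfactory receptor genes. Cd40lg, whose protein platelets are known to carry, lay at 2.65, 2.47 and 2.59 in platelets and at 2.59, 2.65 and 2.68 in progenitors. All 6 values were far below the floor and overlapped, and without the floor the log2 difference was -0.07 (95% interval -0.35 to 0.20).

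**Figure D2:**
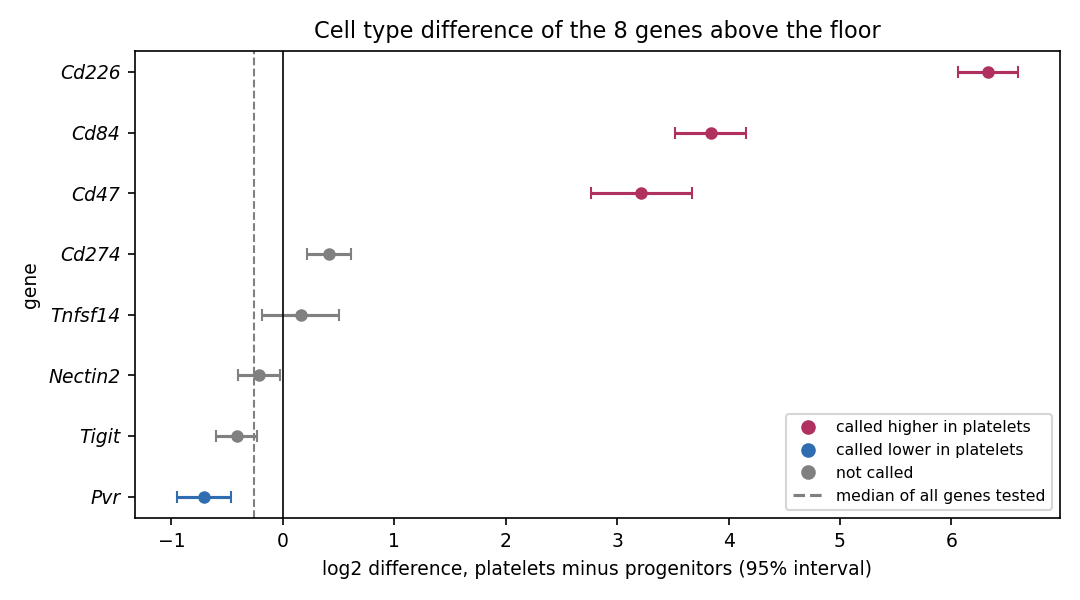
Log2 difference, platelets minus progenitors, of the 8 tested members as points with 95% intervals from limma, coloured by call; the dashed line marks the median of all tested genes (-0.26). The intervals of Cd226, Cd84 and Cd47 begin at 2.76 or above, while those of the other 5 lie between -0.95 and 0.61.

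The stretch of 250 bases before the start of transcription is shown for 3 members: Cd84 (called higher in platelets), and Tnfsf14 and Nectin2 (both tested and not called). Such a stretch was at hand for 7 of the 10 members, and not for Cd226, Pvr and Cd40lg. Sequences are from RefSeq (GRCm38.p6), read 5′ to 3′ on the gene's strand, at chr1:171839447-171839696 (plus strand), chr17:57194182-57194431 (minus strand) and chr7:19749574-19749823 (minus strand). Capitals mark matches, on either strand, to short letters known as binding motifs of factors of the megakaryocyte lineage.
Cd84: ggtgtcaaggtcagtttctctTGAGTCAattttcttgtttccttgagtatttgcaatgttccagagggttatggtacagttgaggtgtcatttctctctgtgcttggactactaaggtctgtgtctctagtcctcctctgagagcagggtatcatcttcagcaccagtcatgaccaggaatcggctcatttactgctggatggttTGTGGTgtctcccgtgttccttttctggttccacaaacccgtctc
Tnfsf14: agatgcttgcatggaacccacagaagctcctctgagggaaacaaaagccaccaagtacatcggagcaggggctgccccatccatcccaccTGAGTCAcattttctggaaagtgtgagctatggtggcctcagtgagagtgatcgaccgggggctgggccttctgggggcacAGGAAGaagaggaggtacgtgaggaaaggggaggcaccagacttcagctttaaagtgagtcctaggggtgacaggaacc
Nectin2: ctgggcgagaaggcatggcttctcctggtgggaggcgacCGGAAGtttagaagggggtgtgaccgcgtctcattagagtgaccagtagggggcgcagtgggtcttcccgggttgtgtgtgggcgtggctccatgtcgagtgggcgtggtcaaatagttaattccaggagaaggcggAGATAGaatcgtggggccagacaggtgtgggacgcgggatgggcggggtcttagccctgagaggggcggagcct
The GATA motif was searched as AGATAA, also read as TGATAA, and with a final G as AGATAG, also read as TGATAG. The ETS motif was searched as AGGAAG, also read as CGGAAG, the RUNX motif as TGTGGT, also read as TGCGGT, and the NFE2/AP1 motif as TGACTCA, each on both strands. Cd84 held 1 RUNX match and 1 NFE2/AP1 match, Tnfsf14 held 1 ETS match and 1 NFE2/AP1 match, and Nectin2 held 1 GATA match and 1 ETS match. Over the 27025 genes with such a stretch, 27.1% held GATA letters, 39.0% ETS, 18.7% RUNX and 4.43% NFE2/AP1. The matches are a description of the letters and were not tied to the levels.

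The genes whose pattern over the 6 arrays was most like that of a called member were found by the smallest root mean square difference after centring each gene on its own mean. For Cd226 these were P2ry12 (0.16), the platelet ADP receptor, Rgs18 (0.19), a regulator of G protein signalling in platelets, and Clec1b (0.26), which encodes the podoplanin receptor CLEC-2. P2ry12 stood at a mean of 10.35 in platelets and 3.72 in progenitors. Cd226, P2ry12 and Clec1b all lay below the floor in progenitors, where values are near background, so this ranking rests in part on differences whose size is not measured. For Cd84 they were Skap2 (0.04), an adaptor of Src family kinases, Tlk1 (0.05), a tousled-like kinase, and Rab11a (0.07), a GTPase of recycling endosomes. Rab11a had a mean of 3.58 in progenitors, also below the floor, so the same limit holds for it. For Cd47 they were Gm6517 (0.06), Gm6265 (0.08) and Asap1 (0.09), an ARF GTPase-activating protein, and for Pvr they were Dolpp1 (0.03), Tnfrsf1b (0.03), a TNF receptor, and Olfr159 (0.03). Pvr itself lay below the floor in platelets, which limits its ranking in the same way.

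In a list of genes known as receptors, ligands and adaptors of the members, 34 of 37 had a probe and 26 were tested. The list also holds SLAM family relatives of Cd84. Of the 26 tested, 9 were called higher in platelets, 2 lower and 15 were not called. Over all tested genes 16.2% were called higher and 25.7% lower. The median difference was -0.10 for the list against -0.26 for all tested genes. With centring on olfactory receptor genes 15 of the list were called higher and 0 lower, beside 7614 and 1033 of all 18875 tested genes. The integrin partner of CD226 was among those called higher: Itgal, its alpha chain, had a log2 difference of 1.98 (SE 0.15) and Itgb2, its beta chain, of 2.48 (SE 0.12). So were the kinases that act on CD226, Fyn at 1.80 (SE 0.11) and Prkca at 2.75 (SE 0.13), and the adaptor Grb2 at 0.93 (SE 0.11).

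Other partners called higher were Thbs1, whose product thrombospondin-1 is a ligand of CD47, at a mean of 10.74 in platelets against 6.03 in progenitors (difference 4.71, SE 0.17), and Ubqln1, whose product links CD47 to the cytoskeleton, at a difference of 1.01. Slamf1 is in the list as a SLAM family relative of Cd84, not as a binding partner of a member. It reached 9.53 against 4.59 (difference 4.94, SE 0.14, limma adjusted p 1.93e-06). Cmtm6, which keeps PD-L1 on the cell surface, had a difference of 1.43 (SE 0.12).

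Of the receptors that face the member ligands, 2 were called lower in platelets. Pdcd1, the PD-1 receptor of PD-L1, had a difference of -1.03 (SE 0.09), and Cd40, the receptor of CD40 ligand, of -0.60 (SE 0.09, limma adjusted p 0.000879), which turned to 0.12 with centring on olfactory receptor genes. Not called were Sirpa, the receptor of CD47, at -0.46, Tnfrsf14 and Ltbr, the receptors of LIGHT, at -0.33 and -0.36, Nectin1, a ligand of CD96, at -0.41, and Nectin4, a ligand of TIGIT, at -0.37. With centring on olfactory receptor genes these 5 lay between 0.25 and 0.39. Nectin3, which binds PVR and nectin-2, Cd80, which binds PD-L1, and Sh2d1a and Sh2d1b1, adaptors of CD84, lay below the floor.

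In a list of other co-stimulatory and co-inhibitory genes, 25 of 26 had a probe and 16 were tested, of which 1 was called higher in platelets, 3 lower and 12 not called (median difference -0.27, against -0.26 for all tested genes, of which 16.2% were called higher and 25.7% lower). The balance turned with the scaling, to 2 higher and 2 lower with quantile normalization, 3 and 1 with median scaling, and 5 and 0 with centring on olfactory receptor genes. Over all tested genes the same scalings gave 4141 higher and 2282 lower, 4673 and 1911, and 7614 and 1033. Cd24a, a surface glycoprotein that binds a sialic acid receptor, was the one called higher, at 8.54 ± 0.02 against 5.79 ± 0.18 (SD, n = 3 each), a difference of 2.75 (SE 0.14). The 3 called lower, Tnfrsf4 (-1.01), Vtcn1 (-0.86) and Siglecg (-0.71), were named after their values were seen, and Siglecg turned to 0.0056 with centring on olfactory receptor genes.

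**Figure D3:**
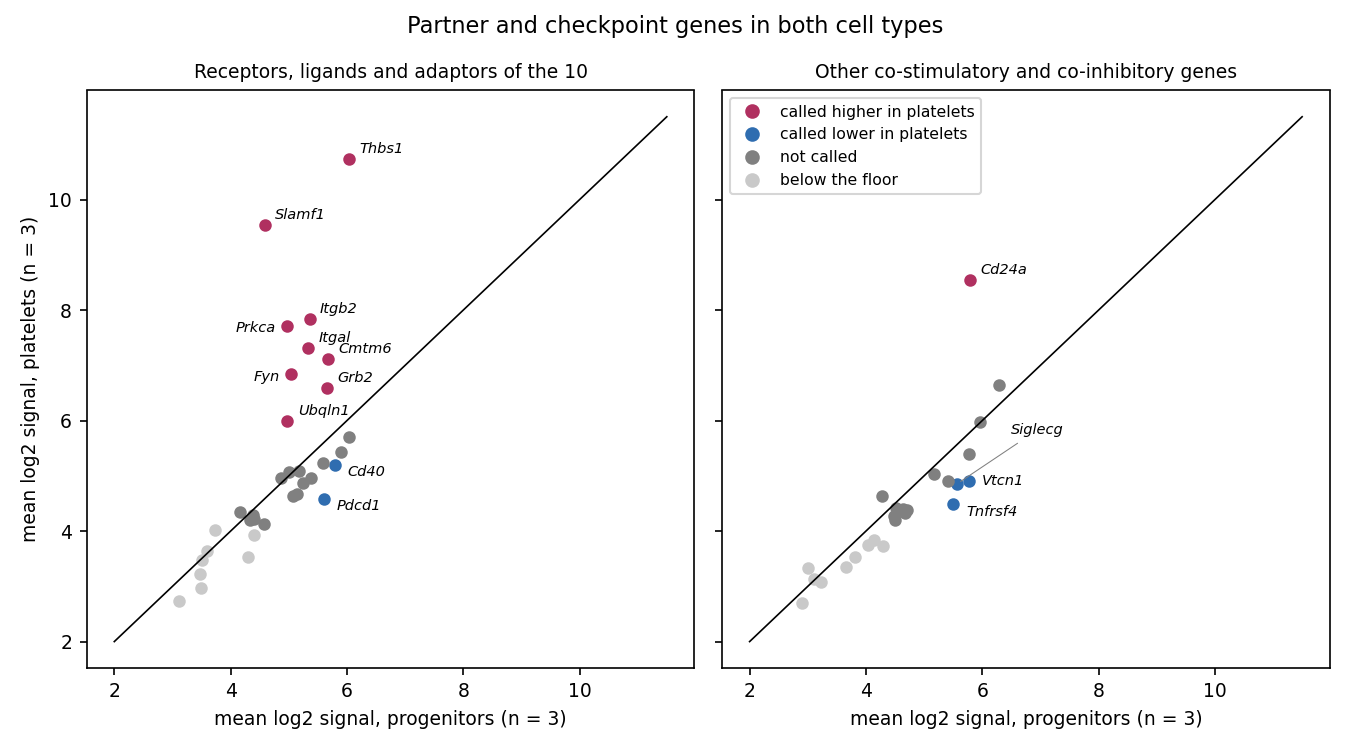
Mean log2 signal in progenitors (horizontal) against platelets (vertical), n = 3 arrays each, for partner genes of the members (left) and for other co-stimulatory and co-inhibitory genes (right); the line marks equal signal and colours mark calls. Thbs1 and Slamf1, the latter a family relative of Cd84 and not a binding partner, lie farthest above the line, at 10.74 and 9.53 in platelets.

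Markers of the cells that carry these genes outside platelets were read on the same arrays. Of 22 T and NK cell genes with a probe 18 were tested, 3 were called higher in platelets (Cd7, Lat and Gzma, at 2.08, 1.52 and 0.79) and 2 lower (Cd8b1 and Cd5), beside 16.2% and 25.7% of all tested genes. Their summed log2 signal was 10.01 to 10.22 in platelets and 9.69 to 9.78 in progenitors. Cd3e, a T cell receptor chain, lay at 4.62, 4.80 and 4.60 in platelets and at 4.96, 5.01 and 5.45 in progenitors. It was thus lower on every platelet array, although the difference turned from -0.47 to 0.25 with centring on olfactory receptor genes. Cd3d lay at 4.39 to 4.50 in platelets and Cd3g below the floor, Ncr1, an NK cell receptor, at 4.21 to 4.75 in platelets and 4.38 to 4.57 in progenitors, and Nkg7, a granule protein, at means of 7.39 and 7.40.

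The monocyte and macrophage genes had summed log2 signals of 10.23 to 10.42 in platelets and 8.74 to 8.83 in progenitors. Of 8 tested 2 were called higher in platelets, Lyz2 at 2.94 and Ly6c2 at 0.94, while the defining Csf1r stood at 4.87 against 4.88 and Itgam at 5.79 against 5.73. Of 6 erythroid genes tested 3 were called higher in platelets, Alas2 at 4.76, Fech at 4.86 and Slc4a1 at 2.17. Not called were Epor at -0.22, Ermap at -0.20 and Rhag at 0.56, and Klf1 and Tfrc lay below the floor. Of 7 B cell genes tested 0 were called higher and 4 lower, with Cd79a at 4.39 against 5.21. All 4 tested mast cell and basophil genes were called lower. Of 6 endothelial genes tested 2 were called higher, Pecam1 at 2.76 and Esam at 2.02, and 0 lower, while Cdh5, Kdr, Tek and Tie1 were not called. Of 6 stromal genes tested 1 was called higher, Dcn, and 2 lower, Col1a1 and Pdgfrb. Dcn stood at 7.75 in platelets against 3.67 in progenitors, which is below the floor. Counted from the floor its difference was at least 3.52. Beside each of these lists stand the shares over all tested genes, 16.2% called higher and 25.7% lower. With centring on olfactory receptor genes, some genes called lower in these lists turned to the other sign. These were 1 of the 2 T and NK cell genes, 1 of the 4 B cell genes and both stromal genes. That centring raised the difference of every gene by the same amount, so a gene called higher could not change sign. The part of these other cells in the levels of Cd226, Cd84 and Cd47 was not tested.

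The vesicles were compared first over both cell types together, 2 arrays against 2, in the same limma fit. No gene passed in any of the 3 comparisons (0% of 18875 genes in each). An unadjusted limma p under 0.05 was reached by 577 genes for CTC41-EVs against PBS, 1171 for CTC41.5G-EVs against PBS and 1157 between the vesicles. Over 18875 tests such values arise without any difference at a rate of 0.05. With 2 arrays against 2, these counts were not read as a response or as a lack of one. None of the 8 tested members was called. The smallest adjusted p of a member was 1 for CTC41-EVs against PBS, 0.803 for CTC41.5G-EVs against PBS (Pvr) and 0.745 between the vesicles (Cd226).

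For Cd226 the averaged log2 difference was -0.19 with CTC41-EVs against PBS (95% interval -0.52 to 0.13) and 0.24 with CTC41.5G-EVs (95% interval -0.09 to 0.56). Between the vesicles it was 0.43, higher with CTC41.5G-EVs (SE 0.14, 95% interval 0.10 to 0.75), and limma gave an unadjusted p of 0.0173 and an adjusted p of 0.745. It was higher with CTC41.5G-EVs than with CTC41-EVs in both cell types, although in progenitors both values lay below the floor. For Pvr the differences from PBS were 0.13 (95% interval -0.17 to 0.42) and 0.25 (95% interval -0.05 to 0.54). Cd47 had the widest intervals, from -0.50 to 0.61 for CTC41-EVs and from -0.32 to 0.80 for CTC41.5G-EVs against PBS, so a change of 1.5-fold (0.58 on the log2 scale) lay inside both. For Cd84 the interval of -0.49 to 0.28 with CTC41-EVs against PBS left out a 1.5-fold change in either direction, for the average over cell types only. The single-array differences were -0.26 in platelets and 0.05 in progenitors, so the interval does not bound the change in platelets alone.

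Within a cell type each comparison set 1 array against 1, which allows no test. None of the 10 members differed by 1.5-fold in any of the 6 comparisons, with or without a floor. Among the 8247 genes with a platelet mean of 5.07 or more (the 75th percentile of probe means), 2.79% differed by 1.5-fold for CTC41-EVs against PBS, 1.95% for CTC41.5G-EVs against PBS and 3.67% between the vesicles. Among 10858 such genes in progenitors the shares were 3.20%, 6.22% and 1.39%. The members counted there were 5 in platelets (Cd226, Cd274, Cd47, Cd84 and Tnfsf14) and 2 in progenitors (Cd47 and Tnfsf14), so a count of 0 among them is near these shares.

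In platelets the members with the strongest signal moved alike. Against PBS, the CTC41-EVs array was lower by -0.32 for Cd226, -0.26 for Cd84 and -0.39 for Cd47, and the CTC41.5G-EVs array was higher by 0.18, 0.18 and 0.08. Tnfsf14 differed by -0.02 and 0.36 in the same comparisons. Many genes of like signal showed the same: over the 699 genes with a platelet mean of 8 or more, a limit set after the values were seen, the median difference was -0.23 with CTC41-EVs and 0.14 with CTC41.5G-EVs, and 77.4% were below PBS with CTC41-EVs. The order (also chosen after the values were seen) of CTC41-EVs lowest, PBS between and CTC41.5G-EVs highest held for all 5 members among the 8247 counted genes, for 26.8% of those genes and for 47.6% of the 699. After quantile normalization the difference with CTC41-EVs was -0.10 for Cd226 and 0.00 for Cd84.

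In progenitors, Cd47 was the member with the widest spread, higher by 0.50 with CTC41-EVs and by 0.41 with CTC41.5G-EVs than with PBS. Its sign with CTC41-EVs was thus opposite in the 2 cell types, at -0.39 in platelets and 0.50 in progenitors. Pvr was higher by 0.26 and 0.32, Cd226 differed by -0.06 and 0.29 below the floor, and Tnfsf14 by -0.10 and -0.18. Over all counted progenitor genes the median difference from PBS was 0.04 with CTC41-EVs and 0.13 with CTC41.5G-EVs, and over the 346 with a mean of 8 or more it was 0.32 and 0.52.

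**Figure D4:**
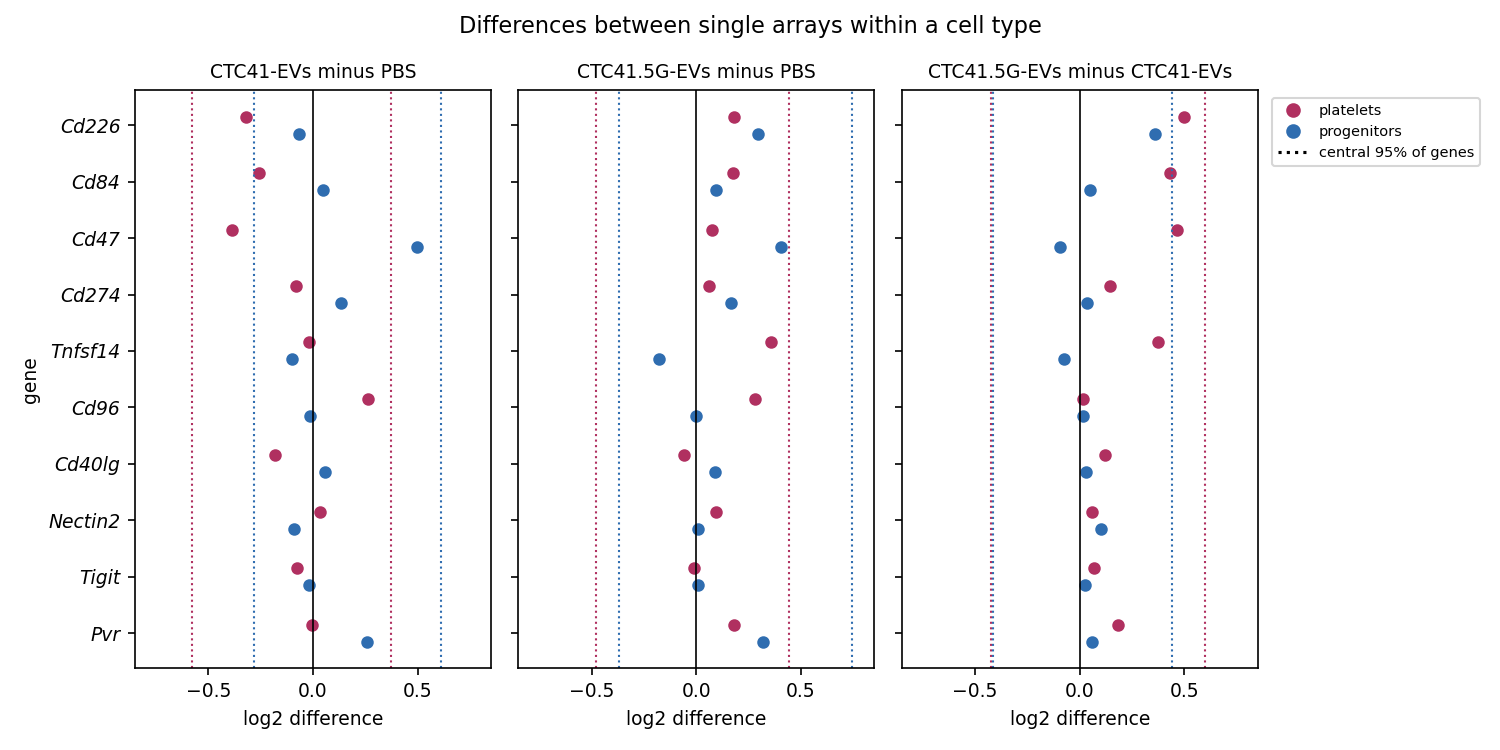
Log2 difference between single arrays for each of the 10 members, platelets and progenitors in colour, in the 3 treatment comparisons; dotted lines bound the central 95% of the differences of all counted genes of that cell type. All points lie inside the lines of their cell type, with the lowest at -0.39 (Cd47, platelets, CTC41-EVs minus PBS).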

How the data were processed

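RNA from platelets and megakaryocyte progenitors, pooled over mice, was hybridised to 6 Clariom D Mouse arrays, 1 per group, so the number of arrays limits the precision. The deposited values are log2 signals from Affymetrix Expression Console 1.4.1.46, per the submitters' processing notes; the series' design text names MAS5.0, and how the arrays were scaled to each other is not settled. Array medians were 4.00 to 4.05 in platelets and 4.38 to 4.45 in progenitors. The amount of RNA is given as 5 ng in the growth protocol and 3 ng elsewhere, and 2 extraction kits are named.

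Of 72688 probes, 30604 name 1 gene symbol, 2146 several and 39938 none; 22818 matched RefSeq GRCm38.p6 and 827 symbols were updated. Probes naming several genes were left out, and of several probes of a gene the one with the highest mean was kept. The values were used as deposited and fitted with limma 3.58.1 (R 4.3.3; lmFit, eBayes with an intensity trend) on cell type and treatment over all genes at or above the 50th percentile of probe means, with Benjamini-Hochberg adjustment over all of them. The script was tested on simulated data. The alternatives were 3 floors, 3 scalings, no trend, robust moderation, no treatment term, the mean of a gene's probes and leaving out each array. P-values measure the spread between these arrays only.

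The 10 genes, the gene lists and the tests were chosen with earlier results of these data known. Genes were named if they are members, direct partners of a member, partner or checkpoint genes called at 1.5 or more (log2), defining markers, or the 3 of most like pattern; called marker genes, partners below 1.5 and the checkpoint genes called lower were added after their values were seen.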

Additional observations from a re-analysis of the deposited data

Results flagged for a closer look

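Cd47 was flagged because its single-array difference between CTC41-EVs and PBS ran in opposite directions in the cell types: it was -0.39 in platelets and 0.50 in progenitors, so the platelet difference minus the progenitor difference was -0.89 on the log2 scale. Both values lay inside the central 95% of counted genes, -0.58 to 0.37 in platelets and -0.28 to 0.61 in progenitors. Over genes with a mean of 8 or more in the cell type the median also ran in opposite directions, at -0.23 and 0.32. Cd47 itself averaged only 5.66 in progenitors. Each value rests on 1 array against 1, and the difference was not tested.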

How the results depend on the processing

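Cd226, Cd84 and Cd47 kept their call under all 16 alternative settings. Median and olfactory receptor scaling raised the difference of every gene by a fixed amount, so those settings could not lower these differences. The floors and the changes to trend, moderation and treatment term left the differences as they were. Each of these genes has 1 probe, so the mean of its probes gave the same values. Only quantile normalization and leaving out an array could lower the differences. Pvr was -0.33 under quantile and median scaling and 0.0094 (reversed) with centring on olfactory receptor genes. Under quantile, median and olfactory receptor scaling Nectin2 was 0.14, 0.16 and 0.50, all reversed, and Cd274 was called at 0.74, 0.79 and 1.13. With olfactory receptor centring Tigit reversed to 0.30 and Tnfsf14 was called at 0.88; leaving out 1 array gave Tnfsf14 values from -0.0045 to 0.26, the lowest without either CTC41.5G-EVs array. Genes called lower in platelets numbered 2356 and 685 with floors at the 75th and 90th percentiles (fewer genes tested), 2282 with quantile, 1911 with median and 1033 with olfactory receptor scaling, and members called lower 0 under each of these. Genes called higher numbered 1430 with the 90th percentile floor, 4673 with median and 7614 with olfactory receptor scaling, where 5 members were called higher.

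Vesicle differences averaged over cell types gave 0 called values for members among 342 alternatives, and 20 reversed; leaving out 1 array gave 0 to 2 called genes in each comparison. Without 1 array, CTC41-EVs minus PBS ran from -0.0817 to 0.0225 for Nectin2, -0.0555 to 0.106 for Cd274, -0.31 to 0.42 for Cd47, -0.277 to 0.0671 for Cd84 and -0.213 to 0.0937 for Tnfsf14. It kept its sign but ranged from -0.29 to -0.0936 for Cd226 and from 0.0283 to 0.228 for Pvr. CTC41.5G-EVs minus PBS ran from -0.0195 to 0.0168 for Tigit, -0.0023 to 0.102 for Nectin2, -0.0629 to 0.545 for Cd47 and -0.16 to 0.33 for Tnfsf14. Between the vesicles it ran from -0.18 to 0.55 for Cd47 and -0.10 to 0.39 for Tnfsf14. The other reversals were Cd84 with CTC41-EVs after quantile normalization (0.0196), and, with olfactory receptor centring, Nectin2 with CTC41.5G-EVs (-0.004) and Tigit between the vesicles (-0.018). Genes past 1.5-fold in platelets, in the order of the 3 comparisons, numbered 1127, 1055 and 1397 with no floor and 142, 69 and 182 with the 90th percentile floor, and 15, 11 and 12 were past 2-fold. In progenitors they numbered 598, 1222 and 594 with no floor, 69 in the third with the 90th percentile floor, and 13, 65 and 6 past 2-fold. Of 240 alternatives for members within a cell type 31 moved. Apart from the floors, whose construction changes the genes tested, the cause was not tested.

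Each group is 1 array, so within a cell type nothing can be tested. Signals near the floor (as for Pvr, Tigit, Nectin2 and, in progenitors, Cd274) or below it (Cd96 and Cd40lg) limit the size of difference that can be seen. No paired analysis by replicate number was possible because each group has 1 array; the treatment term pairs the arrays of the cell types.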
